A study of Mus musculus with 7 samples.

Results

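The regions described here are intergenic stretches of open chromatin that were called in every library of an ATAC-seq experiment on mouse muscle stem cells and that lie over 1 kb and at most 200 kb from the nearest transcription start site (TSS) of a protein-coding gene. They were chosen by merging the 7 deposited peak lists on chromosomes 1 to 19 wherever peaks shared at least 1 bp, and by keeping merged regions that held a peak from all 7 libraries, lay outside every RefSeq protein-coding gene span on mm10 and met the distance limits. This gave 15938 member regions, 30.5% of the 52187 regions called in all 7 libraries (constant regions) and 17.1% of all 93201 merged regions. The other constant regions were 22264 inside protein-coding spans, 11408 within 1 kb of a TSS and 2577 intergenic ones beyond 200 kb. Because the rule used the calls and the positions, the number of members and the fact that each is called everywhere are descriptions and were not tested.

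The libraries came from muscle stem cells (MuSCs) sorted from hindlimb muscle of male mice aged 5 to 6 weeks on a C57BL/6 background, with 5000 cells in each library, taken directly after isolation. Of the 7 libraries, 4 came from Nedd4L-cKO mice, in which Nedd4L fl/fl alleles were recombined by the Pax7 cre/+ driver, and 3 from Nedd4L-WT mice, whose Cre status is not given in the sources used here. The Cre is driven by the Pax7 locus and needs no inducer, so that it is active from development on in cells that express Pax7. The floxed exon encodes part of the catalytic domain, and accessibility of the locus therefore does not check the deletion. MACS2 kept between 14429374 and 20084685 tags per library and called between 67836 and 77479 autosomal peaks, of which 20.9% to 24.0% fell in the members. Nedd4L-WT replicate 3 was sequenced on lane 2 and the other 6 libraries on lane 1. No 2 libraries held a peak with the same position and pileup. The labels do not say whether each library is a separate animal. The p-values given below judge the genotype difference against the spread between these libraries.

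In ATAC-seq the transposase Tn5 inserts sequencing adapters where DNA is not wrapped in nucleosomes, so that stretches with many insertions mark promoters, enhancers, insulators and other occupied sites. Distal open regions far from any promoter are where enhancers are usually found, although an open region need not be one. MuSCs are the quiescent stem cells that lie beneath the basal lamina of the muscle fibre, and their identity depends on transcription factors such as Pax7 and on Notch signalling. Nedd4L is a HECT-type E3 ubiquitin ligase of the Nedd4 family, which marks membrane and signalling proteins for removal. The labelled cell type was checked at the promoters of known markers, with lists drawn up when earlier results were known. A region called in all 7 libraries lay within 1 kb of the TSS in 32 of 33 MuSC genes, against 2 of 15 immune, 7 of 15 endothelial and 10 of 15 fibro-adipogenic genes, while over all 20228 autosomal genes with a TSS the share was 62.4%. The exception among the MuSC genes was Rbpj, measured at the outer end of its span. The sort removed cells with CD31, CD45, CD11b or SCA1, and the TSSs of their genes, Pecam1, Ptprc, Itgam and Ly6a, were not open in this sense. Promoters of other endothelial and fibro-adipogenic genes were open, among them Kdr, Flt1, Col1a1 and Pdgfrb, and the share of the fibro-adipogenic list was not below that of all genes. In bulk libraries a region open in fewer cells and one less open in each cell cannot be told apart.

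No genome of the build of these lists was used here, so that sequence can be shown only for annotated features inside members that RefSeq lists with their sequence on GRCm38.p6, the same build as mm10. The hairpins of 21 miRNA genes lay inside 19 members. The mature arms printed here come from 6 of the 9 hairpins that lay in members with a median pileup percentile of at least 75, and were chosen after these values were seen. The seed, bases 2 to 8, is in capitals, and each sequence runs 5′ to 3′.
miR-132-3p: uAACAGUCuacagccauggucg
miR-212-3p: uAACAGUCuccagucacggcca
miR-210-3p: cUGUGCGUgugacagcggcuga
let-7i-5p: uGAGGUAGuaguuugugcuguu
miR-193a-3p: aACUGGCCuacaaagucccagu
miR-203-3p: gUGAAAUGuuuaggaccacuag
miR-132 and miR-212 share the seed AACAGUC and lie in the same member, chr11:75172942-75173863, 2687 bp upstream of the TSS of Hic1. No 2 others of the arms shown share a seed.

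Promoters of long non-coding RNAs (lncRNAs) also lie inside members, since the rule counts only protein-coding genes. The windows of 300 bases printed next, from 250 bases before to 50 after the start, belong to 3 lncRNAs whose start lies in a member of high pileup and were chosen after the values were seen. Capitals mark matches to CAGCTG, an E-box of the kind bound by myogenic factors, to TGANTCA, the AP-1 site, and to GGGCGG or its complement, a GC box. Mir22hg, the host gene of miR-22, is shown from chr11:75461289-75461588 on the plus strand, Malat1, an abundant nuclear lncRNA, from chr19:5802623-5802922 on the minus strand, and Snhg8, a snoRNA host gene, from chr3:123508287-123508586 on the minus strand.
Mir22hg: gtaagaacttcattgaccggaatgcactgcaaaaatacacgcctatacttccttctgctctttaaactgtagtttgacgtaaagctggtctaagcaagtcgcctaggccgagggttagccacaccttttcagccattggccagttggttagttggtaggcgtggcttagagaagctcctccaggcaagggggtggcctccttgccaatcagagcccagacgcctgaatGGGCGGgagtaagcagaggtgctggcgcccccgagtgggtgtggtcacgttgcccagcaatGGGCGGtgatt
Malat1: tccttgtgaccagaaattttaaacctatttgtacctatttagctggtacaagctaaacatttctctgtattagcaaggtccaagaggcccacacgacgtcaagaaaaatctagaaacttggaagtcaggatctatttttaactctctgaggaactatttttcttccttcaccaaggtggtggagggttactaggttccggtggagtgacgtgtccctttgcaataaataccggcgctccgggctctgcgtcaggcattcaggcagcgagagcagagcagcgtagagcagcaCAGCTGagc
Snhg8: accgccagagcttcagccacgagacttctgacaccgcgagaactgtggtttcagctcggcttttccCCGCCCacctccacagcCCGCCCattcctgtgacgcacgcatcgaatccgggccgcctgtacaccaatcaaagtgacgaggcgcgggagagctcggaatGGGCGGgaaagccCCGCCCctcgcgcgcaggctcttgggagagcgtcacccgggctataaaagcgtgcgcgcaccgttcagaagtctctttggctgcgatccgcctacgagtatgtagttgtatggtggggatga
In all, 756 lncRNA genes started in 736 members, with 873 annotated windows, some of which overlap. CAGCTG was found in 23.7% of these windows, against 17.6% of 11311 lncRNA windows and 15.6% of 20084 protein-coding windows. TGANTCA was found in 10.8%, 9.25% and 7.06% of the same sets. GGGCGG on either strand was found in 26.1% of the windows in members, 16.3% of all lncRNA windows and 47.0% of protein-coding windows. The windows in members thus held GC boxes less often than promoters of protein-coding genes and more often than lncRNA windows at large, as shares and without a test.

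MACS2 gives each broad peak a pileup, the mean height of stacked tags over the peak. It also gives a fold enrichment, the mean of that height over a local background. Each library was called on its own and its values are not scaled to the others, so a region was compared between libraries only by its rank, written as a percentile from 0 to 100 among the 52187 constant regions of the same library. Members were lower and narrower than promoter regions and close to regions inside genes. Their median pileup percentile was 39.95 ± 0.52 (SD, n = 4) in Nedd4L-cKO and 40.0002 ± 0.53 (n = 3) in Nedd4L-WT, and their median fold percentile was 47.5 ± 0.59 and 47.9 ± 0.18. Regions within 1 kb of a TSS stood at a pileup percentile of 81.2 ± 0.69 and a fold percentile of 70.9 ± 1.53 over all 7 libraries. Regions inside genes stood at 43.8 ± 0.19 and 42.8 ± 0.35, and intergenic ones beyond 200 kb at 31.6 ± 1.008 and 51.0 ± 1.42. The order of these 4 classes by pileup, from promoters through gene bodies and members to remote regions, held in each of the 7 libraries, and for the members the genotypes differed by less than the spread between libraries.

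The merged members measured 273 to 5722 bp, with a median of 1199 bp, against 1543.5 bp for promoter regions. In 94.8% of members every library had a single peak. The stretch covered by all 7 libraries had a median of 592 bp in members and 1113 bp in promoter regions, and in 98.9% of members such a shared stretch existed. A narrow peak, called at a q of 0.05 inside the broad peak called at 0.1, was present in every library for 85.0% of members and 97.4% of promoter regions. Members were also less stable in rank than promoter regions. The median SD of a member over the 7 libraries was 10.4 fold percentiles and 6.07 pileup percentiles, against 5.15 and 2.83 for promoter regions. Regions inside genes were close to members in these traits. They had a median length of 1234 bp, a shared stretch of 606 bp and a narrow peak in every library for 84.9%. Their median SDs were 9.99 and 5.94 percentiles, and those of intergenic regions beyond 200 kb were 11.5 and 6.78. Low members moved most. When constant regions were cut into 4 equal classes by pileup, the lowest class took 32.1% of members, with a median SD of 14.9 fold percentiles, and the highest took 13.8%, with 5.21.

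Members were spread over the whole range of distances, with 1051 at over 1 to 5 kb, 1697 at over 5 to 10 kb, 3707 at over 10 to 25 kb, 3519 at over 25 to 50 kb, 3252 at over 50 to 100 kb and 2712 at over 100 to 200 kb. Counted against the 867 Mb of autosomal sequence that met the position rule, they stood at 18.4 per Mb. The density was highest at over 5 to 10 kb, with 23.1 per Mb, and lowest at over 100 to 200 kb, with 12.8 per Mb. At over 1 to 5 kb it was 15.7 per Mb. The share of merged regions that were called in all 7 libraries moved far less, from 54.2% at over 10 to 25 kb to 48.6% at over 100 to 200 kb. Beyond 5 kb, regions farther from genes were thus sparser, while those present recurred in all libraries nearly as often. Neighbouring members lay a median of 20.7 kb apart, and 17.2% of the gaps were under 5 kb. Of all members 66.3% lay upstream of their nearest TSS, a share the rule itself favours, because sequence downstream of a TSS is often inside the gene and was left out. It fell from 89.8% at over 1 to 5 kb to 52.1% at over 100 to 200 kb.

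**Figure D1:**
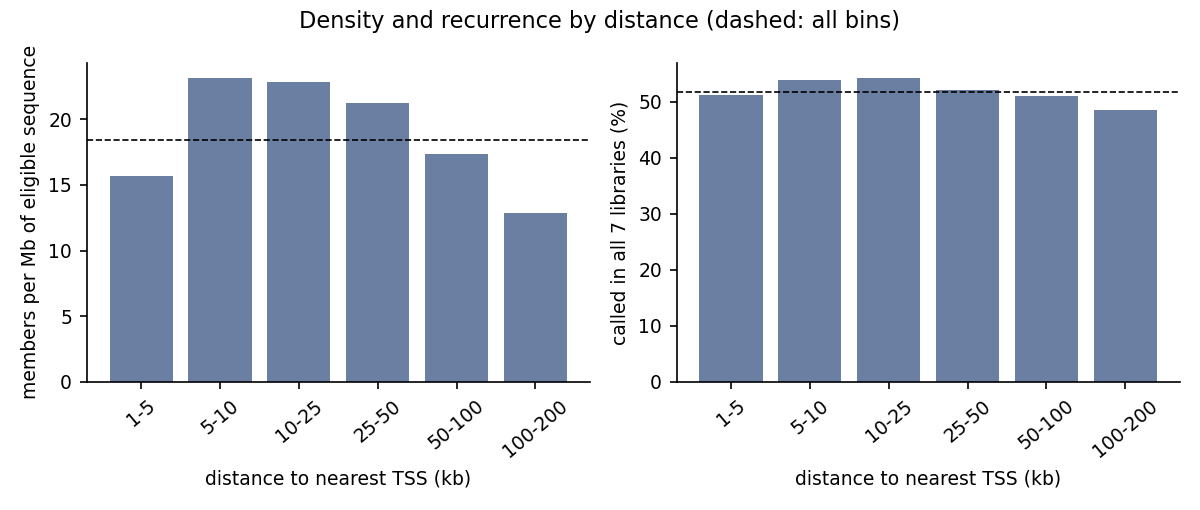
Left, members per Mb of eligible intergenic sequence in 6 bins of distance to the nearest TSS (kb). Right, the percentage of merged regions in each bin called in all 7 libraries. Dashed lines give all bins together, 18.4 per Mb and 51.8%. Density peaks at over 5 to 10 kb and falls with distance, while the called share stays between 48.6% and 54.2%.

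Height and enrichment changed with distance almost only at the near end. At over 1 to 5 kb the median fold percentile of members was 29.0, 29.5, 30.3 and 28.8 in the 4 Nedd4L-cKO libraries and 28.0, 28.3 and 31.5 in the 3 Nedd4L-WT libraries. Their median pileup percentile was 56.0, 57.3, 55.5 and 55.7 in Nedd4L-cKO and 56.5, 57.7 and 56.1 in Nedd4L-WT. As a group, members at this distance were therefore taller but less enriched than those farther away, and the genotypes overlapped on both scales. Their split by the state of the nearest TSS is given below. At over 5 to 10 kb the fold percentile had risen to 49.4 ± 1.06 (SD, n = 7) and the pileup percentile had fallen to 40.9 ± 0.93. Beyond that the bins stayed between 47.8 and 49.8 in fold percentile and between 37.6 and 39.5 in pileup percentile. Members within 10 kb stood 7.42 ± 1.45 fold percentiles below those over 100 kb and 9.40 ± 1.47 pileup percentiles above them. Peaks lengthened with distance, from a median of 779 ± 27.6 bp at over 1 to 5 kb to 908 ± 37.2 bp at over 100 to 200 kb.

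**Figure D2:**
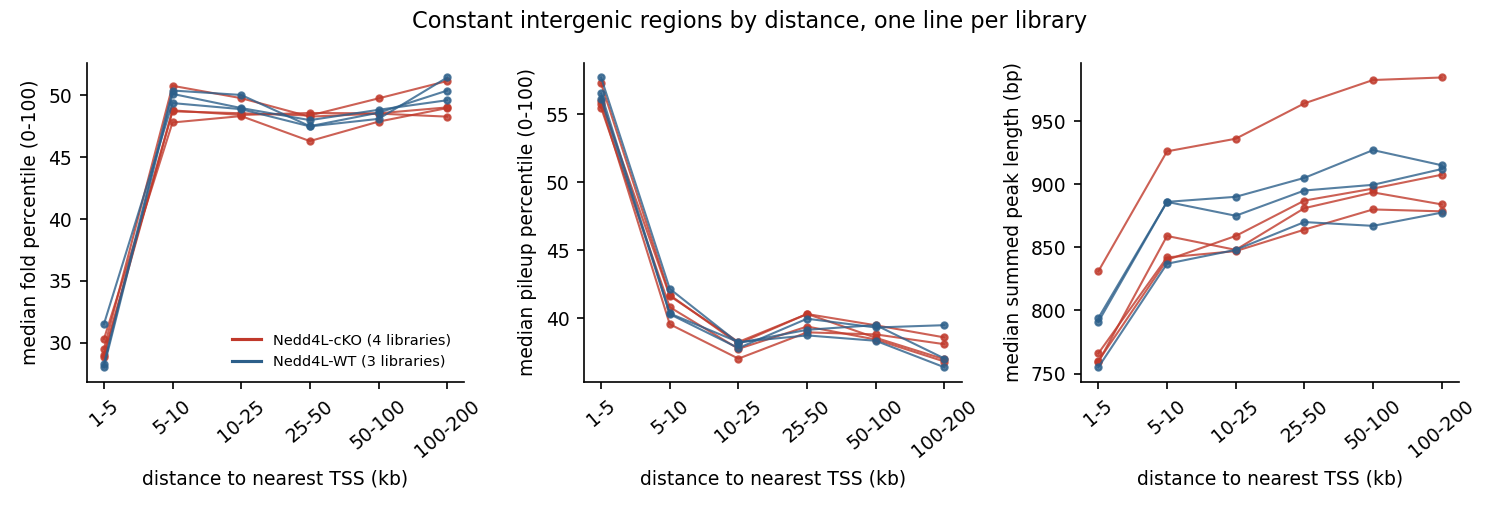
Median fold percentile, pileup percentile and summed peak length (bp) of the members in each distance bin (kb), with 1 line per library, 4 Nedd4L-cKO in red and 3 Nedd4L-WT in blue. All 7 lines bend at over 5 to 10 kb. The line of longest peaks is Nedd4L-cKO replicate 4, at 831 to 984.5 bp.

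The local background that MACS2 used for each peak can be approximated from its pileup and fold enrichment. At each position fold is the pileup plus 1 over the background plus 1. The listed values are means over a broad peak, so the recovered background is approximate. The lowest recovered value in each library came to 0.999 times the genome-wide background computed from its tags. In MACS2 the background is the larger of the genome-wide one and the tag density of a 10000 bp window around the site, which reaches 5 kb to either side. At over 1 to 5 kb the median local background was 3.13 ± 0.16 times the genome-wide one (SD, n = 7), and at over 5 to 10 kb it was 1.78 ± 0.081 times. The split was sharper by the state of the nearest TSS, called open when a constant region lay within 1 kb of it. The 630 members at over 1 to 5 kb from an open TSS had a local background of 4.21 ± 0.22 and stood at a fold percentile of 17.1 ± 1.72 and a pileup percentile of 65.4 ± 0.62. The 421 members at the same distance from a TSS that was not open had a background of 1.68 ± 0.098, a fold percentile of 49.5 ± 1.11 and a pileup percentile of 40.03 ± 0.69. Away from open promoters the near members had a fold rank like that of distant members. The background was recovered from the same pileup and fold, so it is no separate measure. What sets the fold rank was not tested. Their pileup rank was above that of some distant bins beside a TSS that was not open. It exceeded the 34.5 ± 0.81 at over 10 to 25 kb in 7 of 7 libraries. The 35.8 ± 1.81 at over 100 to 200 kb was also lower in 7 of 7 libraries. The 39.4 ± 1.38 at over 50 to 100 kb was not lower in every library. In Nedd4L-cKO replicate 1 it was 41.2 there against 39.1 for the near members. The 2 kinds also differed farther out. Members beside an open TSS had the higher pileup percentile at over 5 to 10 kb, with 42.6 ± 0.99 against 35.6 ± 1.58, and at over 10 to 25 kb, with 38.9 ± 0.41 against 34.5 ± 0.81, in 7 of 7 libraries each. The same held at over 25 to 50 kb, with 40.5 ± 0.67 against 36.2 ± 1.40, in 7 of 7 libraries. At over 100 to 200 kb it was 38.2 ± 0.97 against 35.8 ± 1.81, again higher in 7 of 7 libraries. At over 50 to 100 kb the values were 38.7 ± 0.31 and 39.4 ± 1.38 by pileup and 48.8 ± 0.75 and 48.1 ± 1.27 by fold, within their spread. At over 100 to 200 kb the fold percentile was 50.4 ± 1.13 beside an open TSS and 47.8 ± 1.36 beside others, higher in 7 of 7 libraries. The order by fold was the reverse at over 10 to 25 kb. There it was 48.5 ± 0.82 beside an open TSS and 50.6 ± 0.77 beside others, lower in 7 of 7 libraries.

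**Figure D3:**
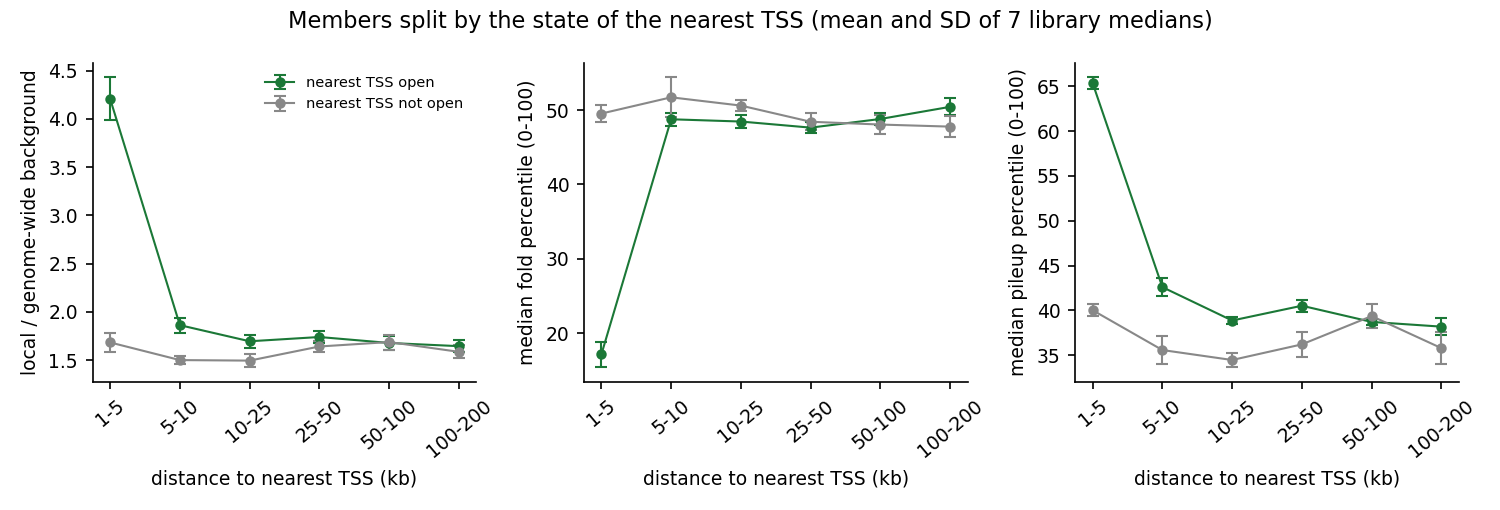
Local over genome-wide background, median fold percentile and median pileup percentile of members by distance bin (kb), for members whose nearest TSS was open (green) or not (grey). Points are means of 7 library medians and bars are SD. The groups part most at over 1 to 5 kb, with fold percentiles of 17.1 and 49.5.

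Members lay mostly beside genes with an open promoter. The nearest TSS was open for 12142 members, 76.2%, against 62.4% of all TSSs and 58.1% of the eligible sequence. This gave 24.1 members per Mb where the nearest TSS was open and 10.5 per Mb where it was not. The share was 59.9% at over 1 to 5 kb and between 76.1% and 78.8% in the other bins. A region whose peaks touch those of an open promoter is merged with it and is then no member. Over all distances the members beside open promoters stood at a pileup percentile of 40.97 ± 0.43 (SD, n = 7) and the others at 36.6 ± 0.84.

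The members were shared out among 6224 nearest genes, 30.8% of those with a TSS, and 3003 of these had a single member. At the other end, 174 genes had at least 10 members each and together took 14.4% of all members. Gas1, which encodes a membrane protein expressed in growth-arrested cells, had the most, with 33 members at 20353 to 187272 bp from its TSS and 88.4 per Mb. Irf2bp2, a transcriptional corepressor, and Zfp36l2, an RNA-binding protein that promotes mRNA decay, had 26 each, at 114 and 156 per Mb. Cops8, a subunit of the COP9 signalosome, had 24, and Irs2, an adaptor of insulin signalling, had 23, as had Tomm20, a subunit of the mitochondrial import receptor. Genes in this list can share an interval. Between Irf2bp2 and Tomm20, whose TSSs are 352 kb apart, lay 43 members, and between Zfp36l2 and Haao, 339 kb apart, lay 47. All 26 members assigned to Zfp36l2 were downstream of it, in the interval with Haao, and they had a median pileup percentile of 76.3 but a fold percentile of 13.5. The nearest gene is an assignment by distance and says nothing of which gene a region acts on.

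Genes of muscle stem cells had many members. The lists below were drawn up with earlier results of these data known, so the counts are descriptions. Of 33 MuSC genes 29 were nearest to at least 1 member, with 163 members and 54.2 per Mb. Of 30 genes of muscle differentiation 17 had a member, with 40 members and 44.9 per Mb, and of 15 immediate early genes 13 had one, with 52 members and 42.9 per Mb. Genes with an open TSS had 24.1 per Mb and all genes 18.4. The immune list had 10 members at 26.5 per Mb, the endothelial list 29 at 24.3 and the fibro-adipogenic list 46 at 21.0. Genes of pluripotency and the germline had 9 at 8.65 per Mb. Genes of other cell types therefore had members too, in 5 of 15 immune, 10 of 15 endothelial and 10 of 15 fibro-adipogenic genes. Dcn, a matrix proteoglycan of fibroblasts, was nearest to 8 and Cdh5, the cadherin of endothelium, to 9, and neither TSS was open. The part of such cells in these counts was not tested. Taking each region's median over the libraries, the median pileup percentile was 75.9 for members of immediate early genes and 55.5 for those of MuSC genes, against 39.6 for all members and 13.1 for the pluripotency and germline list.

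**Figure D4:**
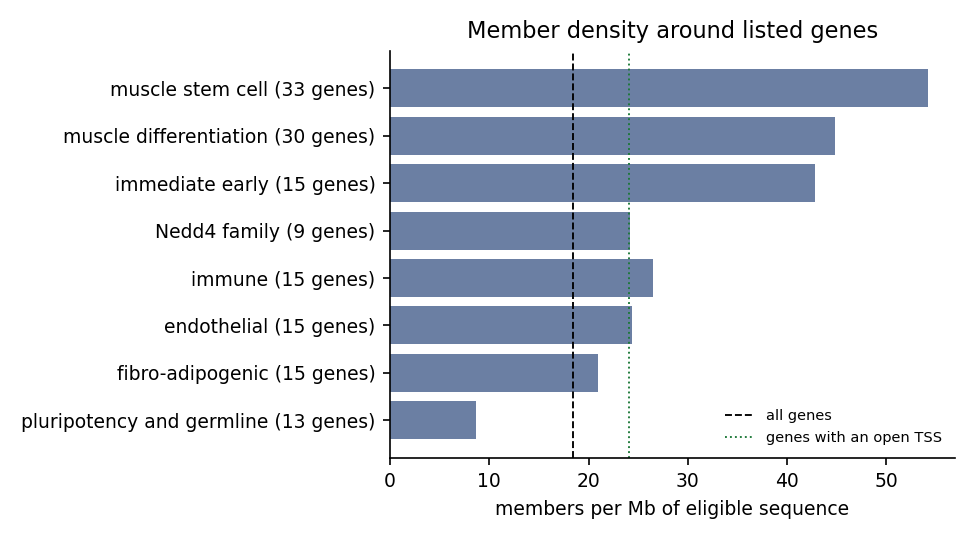
Members per Mb of eligible sequence (x axis) whose nearest TSS belongs to a gene of each of 8 lists, with the number of genes that had a TSS in brackets. The dashed line marks all genes (18.4 per Mb) and the dotted line genes with an open TSS (24.1 per Mb). The MuSC list reaches 54.2 and the pluripotency and germline list 8.65 per Mb.

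Among the listed genes, Hes1, a Notch effector that keeps MuSCs quiescent, had the most members, 16, at 4734 to 182337 bp. Its tallest, chr16:30008021-30009956, 55401 bp upstream, had a pileup percentile of 89.5, 90.4, 90.8 and 92.8 in Nedd4L-cKO and 93.7, 90.7 and 88.7 in Nedd4L-WT. The groups overlapped there. Ncam1, an adhesion molecule of myogenic cells, had 15 members, the tallest at chr9:49827313-49829078, with pileup percentiles of 90.7, 87.9, 94.5 and 88.3 against 83.6, 92.5 and 92.3. Rbpj, the DNA-binding partner of activated Notch, had 13. Its tallest, chr5:53509148-53510303, lay 45476 bp upstream of the outer end of the gene, which was not open, and had fold percentiles of 91.7, 93.5, 95.5 and 94.8 against 97.6, 90.2 and 92.8. Cxcr4, the receptor of the chemokine Cxcl12, Hey1, another Notch effector, and Fos, a subunit of the AP-1 factor, had 12 each. The tallest of Cxcr4, chr1:128508202-128509678, had fold percentiles of 96.4, 95.4, 95.5 and 83.1 in Nedd4L-cKO and 90.5, 92.9 and 95.9 in Nedd4L-WT. That of Hey1, chr3:8717070-8718391, had 33.2, 23.6, 40.7 and 22.0 against 30.9, 9.83 and 38.8, a wide spread in both groups. That of Fos, chr12:85454659-85456436, had pileup percentiles of at least 99.5 in every library. In each of these 6 regions the ranks of the 2 genotypes overlapped.

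Other regulators of myogenic cells had fewer members. Myod1, the myogenic determination factor, had 7, with a median pileup percentile of 87.6, and 1 of them, chr7:46313298-46317483, was the third longest of all members, with 4186 bp. Pax7, the factor that marks MuSCs, had 4, and Myog, which drives terminal differentiation, had 2. Cd34, a surface marker of quiescent MuSCs, had 9. The receptors Notch1 and Notch3 had 5 each and the Notch effector Heyl 2, the latter at a median pileup percentile of 99.4. Myf5 and Notch2 had none. Among differentiation genes, Mef2a, a partner of the myogenic factors, had the most with 8, and Des, the muscle intermediate filament, had 3. In the immediate early list Myc had 11, Jun 7 and Atf3 4. Of the 9 genes of the Nedd4 family 4 had a member. Nedd4 had 4, Smurf1 2, Smurf2 1 and Nedd4l itself 2. The members of Nedd4l lay upstream of its outer TSS on chromosome 18, at 68686 and 92597 bp. The nearer had fold percentiles of 89.0, 89.9, 86.4 and 98.6 in Nedd4L-cKO and 83.4, 89.5 and 95.7 in Nedd4L-WT, and the farther had 58.4, 26.4, 30.7 and 30.2 against 30.4, 41.6 and 47.1. The genotypes overlapped at both, with an adjusted limma p of 0.9999 at each, and the outer TSS of Nedd4l was not open.

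The tallest members were of several kinds. The highest by pileup, and the longest, was chr17:39843050-39848771, which overlaps the annotated 18S ribosomal RNA sequence Rn18s-rs5 and the lncRNA AY036118. Its pileup was 237, 250, 230 and 257 in Nedd4L-cKO and 248, 248 and 235 in Nedd4L-WT, while its fold was 1.74 to 1.75 in every library. Ribosomal RNA genes exist in many near-identical copies, so reads of other copies may be placed there and its height is uncertain. The regions at chr9:35305146-35305676 and chr11:109011566-109012192, over the lncRNA genes Gm33838 and Gm36876, were high on both scales. The latter had a fold of 12.5, 12.9, 12.2 and 12.5 in Nedd4L-cKO and 12.6, 12.7 and 12.7 in Nedd4L-WT. The highest median fold percentile belonged to a short region of 347 bp, chr18:73533286-73533632, 39005 bp upstream of Mex3c. Its fold was 12.7, 14.3, 11.3 and 13.4 against 12.8, 14.1 and 14.2, while its median pileup percentile was only 79.3. After the Gm36876 region came chr12:120027983-120029043, downstream of Tmem196, with a median pileup percentile of 76.5. The local background of the Mex3c and Tmem196 regions was 1.08 and 1.19 times the genome-wide one, against a median of 1.73 for the members.

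The lowest fold percentiles belonged to tall regions over Neat1, the architectural lncRNA of nuclear paraspeckles, whose nearest protein-coding TSS is that of Frmd8. At chr19:5844515-5847221 the pileup was 108.4, 91.6, 98.95 and 101.6 in Nedd4L-cKO and 95.8, 102 and 90.1 in Nedd4L-WT, and the fold was 1.64 to 1.77. The local background was 33.3 times the genome-wide one. A further region of Neat1, chr19:5836957-5837980, had a background of 22.4 times. Fold thus placed these members last although their pileup percentile exceeded 97 in every library. The tallest members nearer to genes were alike. At over 1 to 5 kb it was the Mir22hg promoter, chr11:75460399-75463344, with pileup of 89.3, 84.6, 84.8 and 94.7 against 88.9, 91.7 and 84.4 and a background of 19.96 times. At over 5 to 10 kb it was chr11:117962153-117964328, downstream of Socs3, an inhibitor of cytokine signalling. At over 10 to 25 kb it was chr8:84197337-84198900, upstream of Nanos3. Beside the rRNA region, the longest were chr11:94133392-94137802, with 4411 bp, upstream of Tob1, and the Myod1 region named above. The lowest by pileup were chr11:95595447-95597055, upstream of Ngfr, with pileup of 6.0 to 8.4, and chr12:4493004-4494459, upstream of Ncoa1, with 6.38 to 7.65. In neither did the peaks of all 7 libraries share a base.

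Just inside the limits, the regions nearest to 1 kb were 1003 bp from Klc3 and 1012 bp from Zfp639, with median fold percentiles of 47.4 and 4.28, and just outside they were 996 bp from Slc29a2 and 994 bp from 1700122O11Rik, with 30.5 and 54.0. At the far limit the last inside were 199958 bp from Wrnip1 and 199942 bp from Gm5148, with 39.3 and 74.95, and the next outside were 200024 bp from Ptn and 200088 bp from Lrfn5, with 63.1 and 69.8.

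Non-coding genes overlapped 4148 members, 26.0%. lncRNAs were the largest group, with 3762 members, and pseudogenes overlapped 283. The 736 members that held a lncRNA start stood at a pileup percentile of 54.4 ± 0.77 and a fold percentile of 51.8 ± 1.43 (SD, n = 7), against 38.6 ± 0.42 and 47.5 ± 0.51 for the 11790 without any non-coding gene. They were longer as well, with 1393.5 against 1181 bp. The 82 members over tRNA genes, which RNA polymerase III transcribes, stood at a pileup percentile of 76.8 ± 1.97 and a fold percentile of 48.0 ± 1.31, with a local background of 4.47 ± 0.31 times the genome-wide one. tRNA genes also exist in near-identical copies, and reads may be placed among them. The authors filtered reads by mapping quality, and how far that limits such placement was not tested. Of the regions whose sequence is shown above, that of miR-210, an miRNA induced by low oxygen, at chr7:141221276-141222698 had fold percentiles of 92.5, 95.1, 94.1 and 87.9 in Nedd4L-cKO and 90.4, 91.5 and 90.5 in Nedd4L-WT. That of miR-132 and miR-212 had pileup percentiles of 82.2, 81.2, 75.2 and 73.7 against 74.9, 77.3 and 78.7, and fold percentiles under 6 in every library. That of let-7i, at chr10:122985240-122986687, had pileup percentiles of 81.2, 78.4, 80.9 and 82.4 against 86.2, 81.7 and 80.7. None of these groups separated. That of miR-193a, at chr11:79710661-79712171, had fold percentiles from 56.6 to 82.7 and that of miR-203, at chr12:112129132-112131116, from 33.5 to 55.6, and the genotypes overlapped in both. That of the Malat1 start, chr19:5802017-5804123, had pileup of 60.02, 56.2, 55.99 and 69.2 against 66.1, 58.9 and 53.1, and that of Snhg8, chr3:123507931-123509393, had fold percentiles from 69.0 to 80.3.

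The comparison of the genotypes asked whether these distal regions differed in rank between Nedd4L-cKO and Nedd4L-WT. The rule kept only regions called in every library, so regions that opened or closed with genotype were left out beforehand. Ranks within a library also cannot show a shift common to all constant regions. Ranks by fold were turned into normal scores and fitted with limma over all 52187 constant regions, with p-values adjusted by the Benjamini-Hochberg method over all of them. None of the 15938 members passed an adjusted p of 0.05, as was true of every region tested (0% called), and the lowest adjusted limma p was 0.9999. At an unadjusted p under 0.05 there were 710 members, 4.45%, beside 3.97% of all regions tested. Of these, 311 were higher in Nedd4L-cKO, 1.95% beside 1.78% of all regions, and 399 lower, 2.50% beside 2.19%. The 4 Nedd4L-cKO percentiles lay above all 3 of Nedd4L-WT in 387 members, 2.43% beside 2.67% of all regions, and below them in 364, 2.28% beside 2.09%. Member shares were near the background by every one of these counts. The median difference over the members was 0.081 percentiles, and between the lowest and the highest 5% of members it ran from -15.7 to 13.8, while 50.3% were higher in Nedd4L-cKO. By distance, the share at an unadjusted p under 0.05 ran from 3.62% at over 1 to 5 kb to 5.24% at over 5 to 10 kb. The median standard error of a member was 0.25 on the normal-score scale, so that small shifts were not detectable with 4 and 3 libraries. Larger shifts of single regions did not pass the adjustment either. The region near Trarg1, with a difference of 1.22, had an adjusted limma p of 0.9999. The absence of calls therefore does not exclude such shifts.

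**Figure D5:**
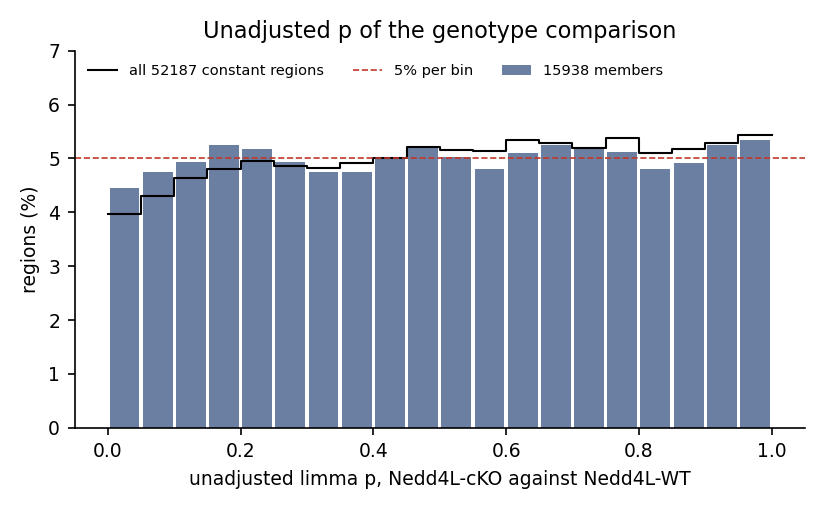
Percentage of regions in bins of 0.05 of the unadjusted limma p for Nedd4L-cKO against Nedd4L-WT. Bars are the 15938 members, the black line all 52187 constant regions and the red dashed line 5% per bin. The lowest bin holds 4.45% of members and 3.97% of all regions, below the dashed line.

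The members with the lowest unadjusted p are given as description only. Higher in Nedd4L-cKO was chr5:148861595-148862809, 66359 bp downstream of the TSS of Katnal1, with fold percentiles of 52.7, 57.4, 63.0 and 64.4 against 11.0, 17.6 and 30.5. Its normal-score difference was 1.13 ± 0.21 (SE), with an unadjusted limma p of 0.000367 and an adjusted p of 0.9999. The other was chr11:76677055-76677469, 2404 bp upstream of Trarg1, a regulator of Glut4 traffic, with 82.95, 76.3, 63.6 and 62.8 against 20.0, 40.1 and 20.7. Its difference was 1.22 ± 0.23, with a limma p of 0.00048 before adjustment. Lower in Nedd4L-cKO was chr7:122945060-122945909, 23728 bp upstream of Rbbp6, an E3 ligase that binds the retinoblastoma protein, with 8.84, 13.4, 9.20 and 12.9 against 35.5, 41.8 and 40.6. Its difference was -0.96 ± 0.17, with a limma p of 0.00023 before adjustment. The last was chr15:97235018-97235887, 11086 bp upstream of Pced1b, with 8.05, 12.7, 12.8 and 11.3 against 44.7, 33.0 and 46.4. In all 4 the groups did not overlap. All were low peaks, with median pileup percentiles of 16.8, 30.6, 7.12 and 1.86. Beside the 3.97% of all regions, an unadjusted p under 0.05 was seen in 8 of the 163 members of MuSC genes, 1 of the 40 of differentiation genes, 1 of the 52 of immediate early genes and 1 of the 9 of the Nedd4 family. It was seen in 1 of 10 members of the immune list, 1 of 29 of the endothelial, 2 of 46 of the fibro-adipogenic and 0 of 9 of the pluripotency and germline list. The lowest adjusted limma p in each list was 0.9999.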

How the data were processed

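The data were ATAC-seq peak lists of 7 libraries of 5000 sorted MuSCs. Per the file headers and the paper's methods, the authors trimmed reads with Trimmomatic 0.39 and aligned them to mm10 with BWA 0.7.17. They filtered reads by mapping quality with SAMtools and removed duplicates with Picard 2.26.3. Broad peaks were called in each library separately with MACS2 2.2.7.1 (single-end mode, shift -100 bp, extension 200 bp, 1 tag per position, no control). The deposited columns are a score, a fold enrichment, -log10 p and q values and, in a further list, a pileup, the mean signal over the broad peak. None is scaled between libraries. Depth is given as tags kept.

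Peaks were merged and classified as described. A region's value in a library was that of its highest peak. TSSs were the outer ends of RefSeq GRCm38.p6 spans, with strand from RefSeq for 16456 and from GENCODE by symbol and chromosome for 3772 of 20661 autosomal genes, and 97.9% had one. Eligible sequence was sampled every 100 bp. Fits used limma 3.58.1 in R 4.3.3, without covariates, on normal scores. The fit was also run on simulated data, with shifts larger than the difference of 1.22 near Trarg1. That run says nothing of smaller shifts. Python 3.11.15 was used for the rest. Members, lists and tests were chosen with earlier results of these data known. Regions named were the extremes by fold, pileup, length, distance bin and p, those at the limits, the genes with most members, and the 6 listed genes with most members. The miRNA, Malat1, Mir22hg and Snhg8 regions, the Nedd4l members, Tomm20, Haao and the cell markers singled out were added after their values were seen. Alternatives covered peak filters, merging, ranking, distance, gene sets, model terms and each library left out. Motif and sequence windows came from RefSeq tables on GRCm38.p6. The values of 1 listed gene are not reported here.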

Additional observations from a re-analysis of the deposited data

Results flagged for a closer look

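Over the 4 Nedd4L-cKO libraries, 113 values were compared for 1 library far from the other 3, by the gap over the range with Dixon's critical value for 4 values as the limit, and 14 passed it. Chance alone flags about 1 in 20 such groups, and groups of 3 were not examined.

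Nedd4L-cKO replicate 4, the library with the most tags kept, had longer peaks in the members than the other 3 Nedd4L-cKO libraries. Its median was 950 bp against 857 to 872 bp in the other 3 libraries. At over 1 to 5 kb it was 831 bp against 759 to 766 bp, at over 10 to 25 kb 936 bp against 847 to 859 bp, and at over 50 to 100 kb 982.5 bp against 880 to 896.5 bp. Whether depth sets the length was not tested.

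The median fold percentile at over 10 to 25 kb was 49.8 in Nedd4L-cKO replicate 2 against 48.3 to 48.6, and at over 25 to 50 kb it was 46.3 in replicate 3 against 48.3 to 48.6. Single regions stood apart as follows. The region near Cxcr4 had a fold percentile of 83.1 in replicate 4 against 95.4 to 96.4. The farther region of Nedd4l had 58.4 in replicate 1 against 26.4 to 30.7. The region near Mex3c had 99.98 in replicate 3 against at least 99.99. By pileup percentile, the region near Ncoa1 had 5.23 in replicate 2 against 0.26 to 0.71, that near Katnal1 had 22.4 in replicate 3 against 16.8 to 17.6, and the rRNA region upstream of Esp38 had 99.998 in replicate 3 against 100 in the others. Outside the members, the region near Ptn had 27.2 in replicate 3 against 41.4 to 43.8 and that near Lrfn5 had 35.7 in replicate 1 against 24.8 to 25.8.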

How the results depend on the processing

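No member passed an adjusted limma p of 0.05 under any of 18 alternatives, where the lowest adjusted p of a member was between 0.856, with the log2 of the tags kept as a covariate, and 1.0. The count at an unadjusted p under 0.05 was 1032 with that covariate (6.48% of members and 5.71% of all regions). It was 278 of 5604 members with peaks of a -log10 q of at least 5 (4.96% and 3.99%) and 464 with ranks by pileup (2.91% and 2.69%). Leaving out a library gave from 643 (3.98% and 3.59%) to 867 (5.29% and 4.47%), with 840 within lane 1 (5.20% and 4.40%). With the replicate number as a block the count was 744 (4.67% and 4.01%), and the adjusted count stayed 0. Same-numbered libraries did not deviate together (r of deviations from the group means -0.12, 0.033 and -0.12 for numbers 1 to 3), so the numbers were not taken as pairs. The q limit also gave a median fold percentile of 49.1, a pileup percentile of 34.1, a peak length of 1085 bp, a near-minus-far difference of -9.21 fold percentiles and -55.1 bp, and an open nearest TSS for 64.8%. Peaks that hold a narrow peak gave 934 bp, a pileup percentile of 39.0 and 75.2% open. Ranks among all peaks of a library gave 59.6 by fold and 52.5 by pileup. Without members over non-coding genes the pileup percentile was 38.6. Without predicted genes 78.4% had an open nearest TSS, and with every RefSeq promoter start as a TSS, an alternative chosen after seeing the data, 80.9%. Which TSSs were open was worked out anew in each setting. The matching share of all TSSs was not computed, so these open shares have no background beside them. Leaving out a library gave 16036 to 16486 members, 869 to 883 bp, fold percentiles of 47.6 to 47.7, pileup percentiles of 39.99 to 40.2, differences of -7.71 to -7.01 and 9.19 to 9.71 percentiles and -77.7 to -69 bp, and 76.2% to 76.7% open. No near-minus-far difference changed sign. The causes of these shifts were not tested.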
